A study of Homo sapiens with 3 samples.

Results

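Growth cone and microtubule-binding genes of the neuron were examined in BE(2)-C cells, a human neuroblastoma line that is a clonal subline with an amplified MYCN gene. The genes were chosen by name, with earlier results of these data known, so their counts and ranks below are descriptions only. They were GAP43, the 5 collapsin response mediator protein genes (CRMP1, DPYSL2, DPYSL3, DPYSL4 and DPYSL5), the stathmins STMN1 and STMN2, and the neurofilament genes NEFL and NEFM. Of these 10 genes, 8 were measured, each by 1 probe set, out of 14884 named genes on the array, and NEFL and NEFM, which name no probe set in the annotation used, were not analysed here. All cells were the same line, and each culture was transfected for 40 hours with a control siRNA, with WDR5 siRNA-1 or with WDR5 siRNA-2. WDR5 is a scaffold subunit of the complexes that methylate lysine 4 of histone H3, and the question was how these neuronal genes stood when it was depleted. There was 1 Affymetrix array for each of the 3 groups, so no value below has a replicate error and no test was possible. A difference compares a pair of arrays, both WDR5 siRNA arrays were set against the same control array, and the number of arrays limits the precision. The labels do not say whether the groups were grown or hybridised together.

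A growth cone is the motile tip of an extending axon. GAP43 is a palmitoylated membrane protein of that tip and a substrate of protein kinase C. Collapsin response mediator proteins bind tubulin in the cytosol and pass on the semaphorin signal that collapses the growth cone, under the control of phosphorylation by CDK5 and GSK3. Stathmins bind free tubulin and favour the shortening of microtubules, and neurofilaments set the calibre of the axon. In neuroblastoma, a tumour of sympathetic neuron precursors, such genes are commonly read as signs of neuronal maturation.

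The deposited values are read as log2 levels, so that a difference of 1 is a doubling. WDR5, the targeted gene, had a level of 9.46 with the control siRNA and of 7.90 with each WDR5 siRNA, which is 33.9% of control. The WDR5 siRNA arrays held an identical value. Such ties are common in this table, and this one was not read as equal depletion. The array has 23 background rows, for probes with 3 to 25 GC bases, and their levels ran from 1.75 to 9.26. A level under 9.26, such as that of WDR5 with each WDR5 siRNA, may include background. Of 16 adrenergic neuroblastoma markers 14 were measured, and all 14 passed the filter on low values, a mean level of 6.78, which 7442 of the 14884 genes passed. For the 14 markers the median difference from control was -0.04 (siRNA-1) and 0.10 (siRNA-2). Past 1.5-fold on the same side with both were 0 of the 14, beside the 0.847% and 0.618% given below for all kept genes. With siRNA-1 alone, 1 was past it on the low side, beside 4.60%, and 0 on the high side. With siRNA-2 alone, 1 was past it on the high side, beside 2.19%, and 0 on the low side. Of the markers of other cells, 4 of 8 for Schwann cells and glia, 3 of 8 for fibroblasts and stroma and 5 of 8 for leukocytes and endothelium were measured. Of these, 2, 2 and 1, respectively, passed the filter. Every measured Schwann cell, glial, leukocyte and endothelial marker was under 9.26 on every array, so their signal may include background. The summed linear signal of the measured Schwann cell markers was 374 with control, 376 with siRNA-1 and 367 with siRNA-2. For the leukocyte and endothelial markers it was 366, 446 and 403, in the same order. For the stromal markers it was 766, 1592 and 1249, mainly through LUM, a matrix proteoglycan gene, which was higher than control by 1.52 with siRNA-1 and by 0.98 with siRNA-2 on the log2 scale. The part of these markers in the differences below was not tested. In RNA from whole cultures, fewer cells of a kind and less RNA per cell cannot be told apart.

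DPYSL5 was lower than control with both WDR5 siRNAs and GAP43 with siRNA-1, DPYSL3 was higher, DPYSL2 with both and GAP43 with siRNA-2 were slightly lower but short of the limit used here, and the other 4 measured genes were within 0.1 of control on the log2 scale. All 8 measured genes passed the filter on low values. With both siRNAs, 1 of the 8 (DPYSL5) was lower by 1.5-fold or more, a limit of 0.58 on the log2 scale, and 0 were higher by as much. Over all 7442 kept genes the background was 0.847% lower and 0.618% higher by that rule. With siRNA-1 alone, 2 of the 8 were past the limit on the low side, beside a background of 4.60%, and 0 on the high side, beside 2.24%. With siRNA-2 alone, 1 was past it on the low side, beside 4.00%, and 1 on the high side, beside 2.19%. These counts rest on 3 genes, from a list chosen with earlier results of these data known. The median difference of the 8 genes was -0.03 with siRNA-1 and -0.01 with siRNA-2, and over all kept genes it was 0 with each. Of all kept genes, 63 were lower and 46 higher with both siRNAs. This split became 50 lower and 57 higher when each array was centred on the median of its named probe sets.

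**Figure D1:**
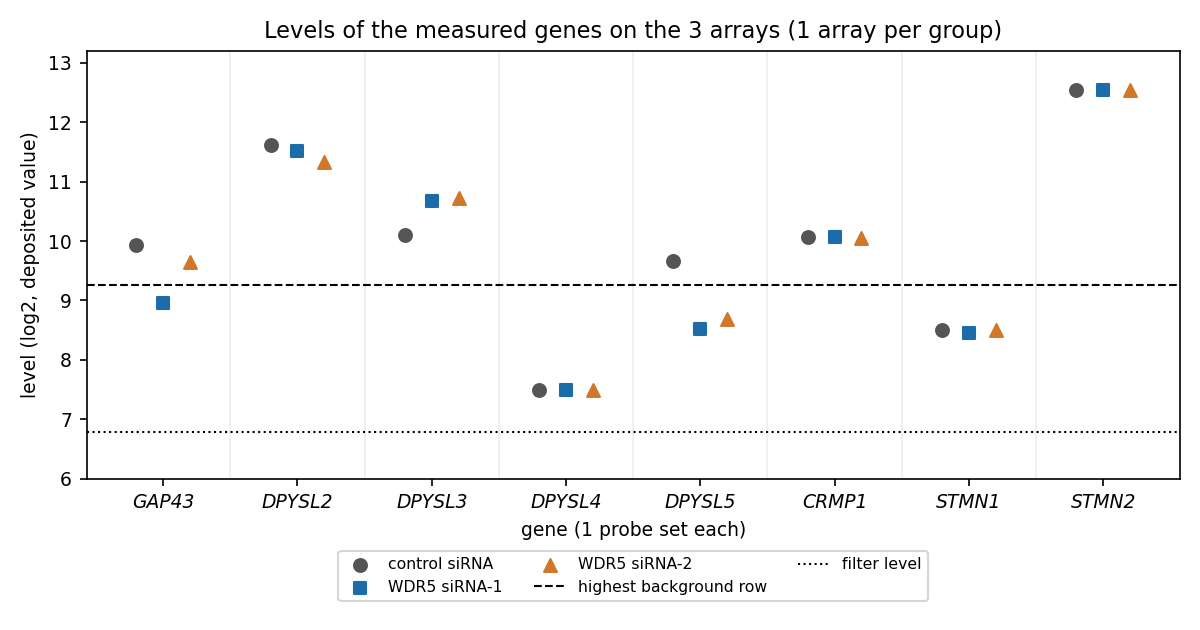
Deposited log2 level (vertical axis) of the 8 measured genes (horizontal axis, 1 probe set each) with control siRNA (circles), WDR5 siRNA-1 (squares) and WDR5 siRNA-2 (triangles), 1 array each and so without error bars. The dashed line is the highest background row, 9.26, and the dotted line the filter level, 6.78. DPYSL5 lies above the dashed line with control and below it with both WDR5 siRNAs. GAP43 lies below the dashed line with siRNA-1 only, while DPYSL3 lies above it on all 3 arrays.

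DPYSL5 encodes CRMP5, the most divergent collapsin response mediator protein, which is made in developing neurons and restrains the outgrowth of their processes. Its level (probe set 16877968, Entrez gene 56896) was 9.67 with control, 8.52 with siRNA-1 and 8.69 with siRNA-2. Both WDR5 siRNA arrays were thus well below control and near each other. The differences from control were -1.15 and -0.98, or 2.22-fold and 1.97-fold lower, which left 45.0% and 50.8% of the control signal. Ranked from the lowest difference among the 7442 kept genes, DPYSL5 stood at place 51 with siRNA-1 and at place 55 with siRNA-2. Ranked by the smaller of its differences, it was at place 9. The siRNA-1 minus siRNA-2 difference was -0.17, small beside the distance of either from control. Both lowered levels are under 9.26, the top background row, and how much background adds to them was not tested.

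The kept protein-coding genes whose pair of differences lay nearest to that of DPYSL5 were DDHD2, a phospholipase gene, EFR3B, a gene of a plasma membrane scaffold, and RTKN2. DDHD2 was at -1.11 with siRNA-1 and -0.90 with siRNA-2, a Euclidean distance of 0.09 on the log2 scale. EFR3B was at -1.10 and -0.86, a distance of 0.13, and RTKN2 at -1.11 with each, a distance of 0.14. Likeness here is measured over 2 differences that share 1 control array.

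RefSeq promoters (GRCh38.p14) are shown for the genes whose levels differed most, DPYSL5, GAP43 and DPYSL3, because WDR5 and N-Myc act at promoters and these windows differ widely in composition. Each sequence is the 250 bases before the start site, taken from the outermost start where a gene has several. Capitals mark any CANNTG, the core of the E-box family to which MYC and MAX proteins bind best as CACGTG. Both motifs read the same on either strand, and CACGTG is itself a CANNTG. For DPYSL5 the window is chr2:26847745-26847994, plus strand, and it holds 0 matches to CANNTG.
DPYSL5: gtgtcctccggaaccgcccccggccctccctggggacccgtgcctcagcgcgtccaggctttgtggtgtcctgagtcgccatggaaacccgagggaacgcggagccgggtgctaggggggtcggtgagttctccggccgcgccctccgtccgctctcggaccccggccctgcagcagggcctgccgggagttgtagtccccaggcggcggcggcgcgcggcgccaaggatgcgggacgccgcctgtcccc
GC bases made up 74.8% of this window, and it held 30 CpG dinucleotides, against medians of 58.0% and 11 over the 35116 windows in the table. Of those windows, 61.8% hold CANNTG and 6.34% hold CACGTG. The second DPYSL5 start in the table also had 0 matches in its window. A missing match says only that these letters are not in this window.

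GAP43 separated the WDR5 siRNAs. Its level (probe set 16944251, Entrez gene 2596) was 9.93 with control, 8.96 with siRNA-1 and 9.64 with siRNA-2. The siRNA-1 array was the low one, and the siRNA-2 array lay between it and control, nearer to control. The siRNA-1 level is under 9.26, the highest background row, and how much background adds to it was not tested. The differences from control were -0.97 and -0.29, or 1.96-fold and 1.22-fold lower. Among the kept genes, place 95 from the lowest with siRNA-1 contrasts with place 970 with siRNA-2. The siRNA-1 minus siRNA-2 difference was -0.68, or 1.60-fold lower, and GAP43 was the 1 gene of the 8 past 1.5-fold in that comparison. The background there was 4.65% of kept genes on that side and 4.21% on the other. The comparison between siRNAs does not use the control array. Of the 14 adrenergic markers, 2 were also past 1.5-fold on that side and 0 on the other, with a median siRNA-1 minus siRNA-2 difference of -0.19. They were DBH, the noradrenaline synthesis enzyme, at -1.32, and CHGA, a secretory granule protein gene, at -1.20. Like GAP43, DBH and CHGA were below control with siRNA-1, at -0.81 and -0.47. Unlike GAP43, DBH and CHGA were above control with siRNA-2, by 0.51 and 0.73. Not all markers lay on that side, and INSM1 was at 0.55, short of the limit. DBH, CHGA and INSM1 were named after their values were seen. The part of these markers in the GAP43 difference was not tested.

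The GAP43 window, chr3:115623260-115623509 on the plus strand, holds 1 match to CANNTG and 0 to CACGTG.
GAP43: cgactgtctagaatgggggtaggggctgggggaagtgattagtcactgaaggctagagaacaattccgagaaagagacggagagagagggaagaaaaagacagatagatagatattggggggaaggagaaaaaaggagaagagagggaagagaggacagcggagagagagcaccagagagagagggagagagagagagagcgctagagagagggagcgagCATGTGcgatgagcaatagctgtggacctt
It is unlike that of DPYSL5, with runs of gaga and fewer CpG dinucleotides. Purines (A and G) made up 78.4% of it, place 29 from the highest among the 35116 windows, whose median was 50.0%. GC bases made up 51.6%, and there were 7 CpG dinucleotides.

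DPYSL3 encodes CRMP4, which bundles actin and binds microtubules in growth cones. Its level (probe set 17001299, Entrez gene 1809) was 10.10 with control, 10.68 with siRNA-1 and 10.73 with siRNA-2. Both WDR5 siRNA arrays were above control and almost level with each other, with a siRNA-1 minus siRNA-2 difference of -0.05. The differences were 0.58 and 0.63, or 1.49-fold and 1.55-fold higher. With siRNA-2 this was past the 1.5-fold limit, and with siRNA-1 it was just short of it. When each array was centred on the median of its named probe sets, the siRNA-1 difference was 0.63 and DPYSL3 counted as higher with both. Ranked from the highest, it stood at place 174 with siRNA-1 and 137 with siRNA-2. By the smaller of its differences it was at place 48 from the highest. All 3 of its levels were above the highest background row. DPYSL3 and DPYSL5, of the same protein family, thus lay on opposite sides of control with both siRNAs.

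The outermost DPYSL3 window is chr5:147510069-147510318 on the minus strand. It holds 1 CANNTG and 0 CACGTG.
DPYSL3: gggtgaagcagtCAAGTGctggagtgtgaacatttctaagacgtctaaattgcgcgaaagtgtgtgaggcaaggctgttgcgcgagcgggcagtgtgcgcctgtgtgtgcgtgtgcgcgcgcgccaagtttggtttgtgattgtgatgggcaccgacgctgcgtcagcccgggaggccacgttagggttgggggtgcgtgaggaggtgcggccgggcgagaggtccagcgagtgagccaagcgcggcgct
Its GC share was 62.8%, with 25 CpG dinucleotides. The window of the inner start in the table holds 1 CANNTG as well.

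**Figure D2:**
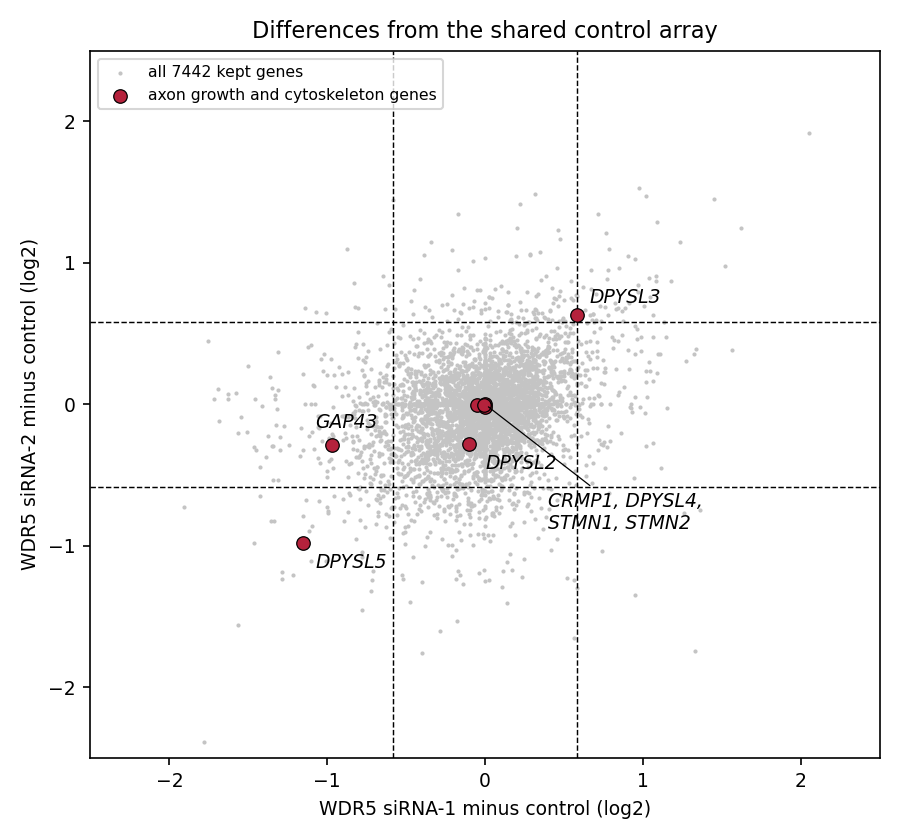
Difference from control on the log2 scale with WDR5 siRNA-1 (horizontal axis) and WDR5 siRNA-2 (vertical axis) for the 8 measured genes (red) and all 7442 kept genes (grey), with dashed lines at 1.5-fold. DPYSL5 (-1.15 and -0.98) is past both lines and GAP43 (-0.97 and -0.29) past 1 line. DPYSL3 (0.58 and 0.63) is near the crossing of the upper and right lines, past the siRNA-2 line and just short of the siRNA-1 line. At the centre are 4 genes. The axes share 1 control array, and 2 genes lie outside the plotted range.

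DPYSL2 encodes CRMP2, the founding member of the family, which carries tubulin dimers to the growing microtubule end. Its level was 11.61 with control, 11.51 with siRNA-1 and 11.33 with siRNA-2. Control was the highest array and siRNA-2 the lowest. The differences of -0.10 and -0.28, or 1.07-fold and 1.21-fold lower, were short of the limit. CRMP1, a mediator of semaphorin 3A and reelin signals, had a level of 10.07 with control, the identical value with siRNA-1 and 10.05 with siRNA-2. DPYSL4, which encodes CRMP3, had the value 7.49 on all 3 arrays, below the highest background row. Of the 5 family members, 1 was thus lower with both siRNAs at the limit, 1 was higher with 1 siRNA at the limit, and 3 were short of it with each.

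The stathmins gave nearly the same levels on every array. STMN2, also called SCG10, is a neuron-specific stathmin held on membranes of the growth cone, and its level was 12.54 with control and 12.53 with each WDR5 siRNA. STMN1, the ubiquitous cytosolic stathmin, had a level of 8.50 with control, 8.45 with siRNA-1 and 8.50 with siRNA-2. These levels of STMN1 were below the highest background row and may include background. The difference from control farthest from 0 was -0.05, of STMN1 with siRNA-1. STMN1 and STMN2 with CRMP1 and DPYSL4 were the 4 of the 8 genes within 0.1 of control with both siRNAs, beside 34.5% of all kept genes. Exact ties are common in this table. At least 2 arrays had the same value for 3 of the 8 genes and for 41.1% of kept genes, and all 3 did for 1 of the 8 and for 14.9% of kept genes. A tie was not read as a close match between the cultures.

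Promoters were searched for 6 of the measured genes, in 13 windows. CACGTG stands in 2 of these windows, beside 6.34% of all windows. DPYSL2 and STMN2 were not searched. A window of STMN1 holds it at 2 places, which 0.535% of all windows do, and an inner start of CRMP1 holds it at 1. The stretches of 26 bases around these matches are shown with the motif in capitals. STMN1 and CRMP1 had levels within 0.1 of control, and so did DPYSL4, whose window holds 0 CACGTG. A link between motif and level was not tested.
STMN1, chr1:25906498-25906523, minus strand: gcgggggcggCACGTGccgccgctct
STMN1, chr1:25906454-25906479, minus strand: gcgcggaggtCACGTGcctctgtttg
CRMP1, chr4:5890243-5890268, minus strand: ccctgatacgCACGTGgtcttgtccc
The STMN1 matches begin 94 and 50 bases before that start site, and the CRMP1 match begins 37 bases before its own. A match is a description of the letters and not a measured site.

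Partner genes were read from 8 lists of the same biology. Of their 151 genes, 110 were measured and 83 kept, and 0 of the 83 were past 1.5-fold on the same side with both siRNAs, beside backgrounds of 0.847% lower and 0.618% higher, so that a count of 0 is near the background. With siRNA-1, 3 were lower and 1 higher past the limit, beside 4.60% and 2.24% of all kept genes. With siRNA-2, 1 was lower and 3 were higher, beside 4.00% and 2.19%. Between the WDR5 siRNAs, 5 were lower and 3 higher with siRNA-1, beside 4.65% and 4.21%. The median difference of the 83 genes was 0 with each. The gene of the 83 with the largest difference shared by both siRNAs was NFASC, a node of Ranvier adhesion gene, higher by 0.54 with each. Its level was 6.92 with control and an identical 7.46 with each WDR5 siRNA, all under 9.26, the highest background row. That tie was not read as a close match.

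Tubulin-binding partners showed no common direction. Of 10 kept microtubule genes 0 were past the limit with both siRNAs, and their median was 0.03 with siRNA-1 and 0 with siRNA-2. MAP1A, which stabilises microtubules, had differences of 0.31 and 0.39 and was the gene with the largest difference shared by both. STMN3, a further neuronal stathmin, stood at 0 and -0.08. Among 9 kept intermediate filament genes the medians were -0.10 and -0.13. NES, the progenitor filament nestin, had differences of -0.37 and -0.25, and LMNB1, a nuclear lamin gene, of -0.25 and -0.43. PRPH, the peripheral neuron filament peripherin, was at -0.14 with each siRNA. In these lists 2 genes, named after their values were seen, were past the limit with siRNA-1 and short of it with siRNA-2. They were MAPT, the axonal tau gene, at -0.62, and VIM, the vimentin gene, at 0.75, both under 9.26 on every array.

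Among the 14 kept semaphorin pathway genes, 0 were past the limit with both siRNAs and the medians were 0 and 0.01. CDK5, the kinase that primes CRMP2, had a level of 10.86 with control, 10.58 with siRNA-1 and 9.26 with siRNA-2. The siRNA-2 array was the low one, 3.04-fold below control, while siRNA-1 differed by -0.29. GSK3B, which acts on CRMP2 after CDK5, was at 0.09 and 0.18. DYRK2, a further priming kinase, was higher by 0.51 and 0.39. NRP1, a semaphorin 3A receptor, had differences of -0.53 and -0.37, and PLXNA2, a plexin co-receptor, of 0.14 and 0.70. Receptor and kinase genes lay on either side of control, and those past the limit were past it with siRNA-2 and short of it with siRNA-1. GSK3B, STMN3 and, among the genes below and above, REST and LUM were named after their values were seen.

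Growth cone membrane genes, the company of GAP43, had medians of 0.01 and 0.02 over 10 kept genes. CNTN1, a contactin adhesion gene, was at -0.72 with siRNA-1 and -0.21 with siRNA-2. MARCKS, which like GAP43 is a protein kinase C substrate at the membrane, was at 0.48 and 0.18. NRCAM, a further adhesion gene, was at 0.14 and 0.26. Growth cone actin genes had medians of 0 and 0.05 over 14 kept genes. COTL1, a coactosin gene, was at 0.41 and 0.66, DIAPH1, a formin gene, at -0.62 and -0.26, CFL2 at -0.28 and -0.21 and PFN1 at 0.14 and 0.09. Netrin, slit and ephrin guidance genes had medians of 0 and 0.10 over 10 kept genes, with SRGAP1 at 0.45 and 0.42 and UNC5C at 0.12 and 0.17. In these lists too, 0 genes passed with both siRNAs.

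Regulators of neuronal messages and promoters made up the remaining lists. The 7 kept genes of RNA-binding proteins had a median of 0.01 with each siRNA; KHSRP, which speeds the decay of AU-rich messages, was at 0.13 and 0.04. The ELAVL genes, whose products stabilise GAP43 mRNA, were not analysed here. REST, the repressor of neuronal genes, was listed at 5.28 on all 3 arrays, below the filter level. Of its partners, 9 were kept, with medians of 0.13 and -0.09, and RCOR3, a co-repressor gene, was at 0.13 with each. None of the 9 reached the limit with either siRNA.

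**Figure D3:**
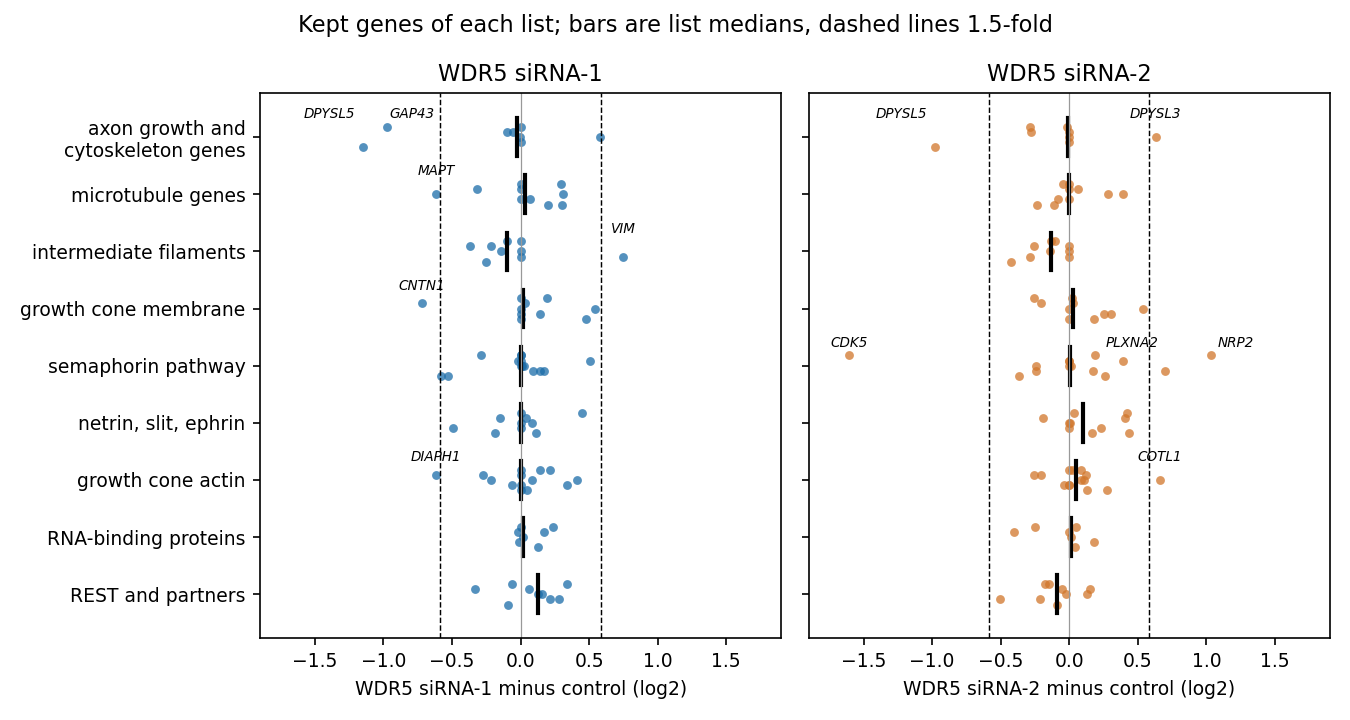
Difference from control on the log2 scale (horizontal axis) for each kept gene (points) of the measured axon growth and cytoskeleton genes and of 8 related lists (vertical axis), with WDR5 siRNA-1 on the left and WDR5 siRNA-2 on the right. Black bars are list medians, dashed lines mark 1.5-fold, and the named points are the genes past it with that siRNA, chosen after their values were seen; the DPYSL5 points are the leftmost of the top row in each panel, at -1.15 and -0.98.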

How the data were processed

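The authors deposited 1 value table with 53617 rows and a column for each of the 3 arrays. Its deposited values, 1.34 to 14.9, were read as log2 from their range, since no scale is stated, and every fold rests on that reading. MAS5 is named without a role, per the submitters' processing notes; the other steps are not given in the sources used here. Array medians were 5.81, 5.79 and 5.79, and no further scaling was applied.

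Rows were named through the platform annotation: 16098 had 1 gene symbol, and all 16098 Entrez identifiers matched the RefSeq table of GRCh38.p14. Where a gene had more than 1 probe set (779 genes), that of highest mean stood for it, and genes with a mean at or above the median, 6.78, were kept. Differences are of log2 values between 2 arrays, computed with Python 3.11.15, numpy 2.4.6 and pandas 2.3.3. A gene was counted at 1.5-fold; no p-value can be had from single arrays. The count was checked only on simulated arrays, with noise set well below the spread between the WDR5 siRNA arrays. That check cannot give the error of the count in these data. The members and lists were chosen with earlier results of these data known. Named are WDR5, every member, the genes nearest to a member past the limit with both siRNAs, and up to 4 kept genes a list by the smaller difference; others are identified as such. The planned comparison of protein sequences was not run, and neither were tests.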

Additional observations from a re-analysis of the deposited data

How the results depend on the processing

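No paired analysis was possible because each group has 1 array, and leaving out an array was not possible for the same reason. The differences of the 8 genes were recomputed with no filter, a 75th percentile filter, the mean of probe sets and quantile normalization. Further settings were median centring on the named probe sets and a floor at the background median of 4.61. Only quantile normalization and median centring could change a difference of the 8 genes. Each has 1 probe set and levels above that floor, and a filter only removes genes. DPYSL5 stayed between -1.15 and -1.11 with siRNA-1 and between -0.98 and -0.93 with siRNA-2, and GAP43 between -0.97 and -0.92 with siRNA-1 and between -0.29 and -0.25 with siRNA-2. The siRNA-1 difference of DPYSL3 was 0.626 with median centring, which made 1 gene higher with both siRNAs in place of 0. With a 2-fold limit, 0 genes were lower with both, 1 (DPYSL5) was past it with siRNA-1 and 0 with siRNA-2. With the 75th percentile filter, which removes DPYSL4 and STMN1, the median of the genes with siRNA-2 was -0.148, and that of the microtubule list with siRNA-1 was 0.199. With no filter the median of the netrin, slit and ephrin list with siRNA-2 was 0. The single array per group limits every value.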

Other observations

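Some genes of the related lists, chosen after their values were seen, had differences between the WDR5 siRNAs on the side of GAP43. MAPT, the axonal tau gene, had a level of 8.38 with control, 7.76 with siRNA-1 and 8.66 with siRNA-2. DCX, the doublecortin gene of migrating neurons, had levels of 6.68, 5.70 and 6.59 in the same order, each under the filter level of 6.78. PLXNA3, a plexin gene, was at 7.69, 7.11 and 7.95. For these genes, as for GAP43, siRNA-1 gave the lowest of the 3 levels. With siRNA-2, MAPT and PLXNA3 were above control, unlike GAP43. Among the 83 kept genes of the lists, 5 were past 1.5-fold on that side, beside 4.65% of all kept genes. They include UNC5B at -0.72 and SLIT3 at -0.62. On the other side 3 were past it, beside 4.21%.

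VIM, the intermediate filament gene vimentin, had the opposite order, with 8.21 for control, 8.96 for siRNA-1 and 7.93 for siRNA-2, a difference of 1.03 between the WDR5 siRNAs. NRP2, a semaphorin receptor gene, had the same level of 7.17 with control and siRNA-1 and 8.21 with siRNA-2. The difference between the siRNAs was not tested for any of these genes.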
